A study of Caenorhabditis elegans with 2 samples.

Results

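Binding of NHR-237, a nuclear hormone receptor, was examined at the genes that set X-chromosome dosage in Caenorhabditis elegans: xol-1, sdc-1, sdc-2, sdc-3, dpy-21, dpy-26, dpy-27, dpy-28, dpy-30 and mix-1. These 10 genes were listed by symbol, with earlier results of these data known, and are 10 of the 19973 protein-coding genes of the nuclear chromosomes. The libraries were chromatin immunoprecipitation and sequencing (ChIP-seq) of whole L4 larvae, a stage shortly before adulthood, in 1 group of 2 biological replicates. The worms were of strain OP228, genotype unc-119(ed3) III; wgIs228, which carries a transgene insertion for nhr-237 whose product ends in a GFP-FLAG tag, and the labels give males and females pooled. The labels give the age as unknown and name no other condition, so every region below was read in worms that carry the transgene. Since the animals were whole and of mixed sex, no region can be assigned to a tissue or to 1 sex. Sequencing depth is unknown, as the lists hold no read counts.

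In worms the ratio of X chromosomes to autosomes sets sexual fate and X dosage together. XOL-1 is the switch: it is active in XO males, where it keeps dosage compensation off, and is repressed in XX hermaphrodites. In hermaphrodites SDC-2, helped by SDC-3 and DPY-30, brings a condensin-like complex (DPY-27, MIX-1, DPY-26, DPY-28 and CAPG-1, with SDC-1 and DPY-21) to both X chromosomes and lowers their transcription. The complex is loaded at recruitment sites on X that carry the MEX motif, whose core was searched here as GCGCAGGG.

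Each gene's window ran from 5000 bp upstream of the gene to its end, and a region belonged to the window when its summit lay there. Regions came from the authors' list for both replicates together (the pooled list, 26787 regions), from the list of each replicate (30000 regions each) and from the 237 regions that passed the irreproducible discovery rate procedure (the IDR peaks). The signal is the authors' own value for a region, on a scale that the labels and files do not give, so regions are described by their rank within a list, where 1 is the highest signal. The pooled and replicate lists were made as input for IDR and hold background as well as peaks, so many of their regions are weak. Over the pooled list the median of the deposited −log10 q, where higher is stronger, was 0.0875.

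The strongest NHR-237 regions near these genes lay upstream of dpy-28, xol-1 and sdc-2. These 3 of the 10 genes had an IDR peak in the window, where 1.88% of all protein-coding genes did, and 2.78% of those with a window of 10000 bp or more. The dpy-28 region ranked 27 in the pooled list, the xol-1 region 28 and the sdc-2 region 188. Of these peaks, that at sdc-2 lay at the gene's own promoter. The xol-1 peak lay 4878 bp upstream, between genes, and the dpy-28 peak lay at the promoter of another gene. The other 7 genes had weaker regions, with best ranks between 1121 for dpy-21 and 14009 for sdc-3. Outside the 3 peaks, no pooled region of the 10 genes had a −log10 q above 0.958. By that value the pooled list does not separate such regions from background. In replicate 2 the region that overlapped the xol-1 region 2854 bp upstream had a value of 2.39, as the 3 peaks did there. The one that overlapped the dpy-26 region had 1.86. A replicate 2 region upstream of dpy-21, at rank 1098, had 2.23 but overlapped no pooled region. Of the remaining regions outside the 3 peaks, the highest value was 1.33 in replicate 2 and 1.31 in replicate 1. All 10 genes had at least 1 pooled region, which is near the background, since 81.9% of all protein-coding genes had one.

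The sequences of these 3 peaks show what kind of DNA lies under each, 100 bases to either side of the summit, from the WBcel235 (ce11) forward strand, 5′ to 3′. They are in lower case, with capitals at each match to a searched motif on either strand.

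xol-1, chrX:8036335-8036535: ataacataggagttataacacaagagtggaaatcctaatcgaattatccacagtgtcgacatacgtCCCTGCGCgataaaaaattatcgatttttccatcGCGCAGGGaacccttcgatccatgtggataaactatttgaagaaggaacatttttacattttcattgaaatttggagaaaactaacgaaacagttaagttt

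sdc-2, chrX:11522165-11522365: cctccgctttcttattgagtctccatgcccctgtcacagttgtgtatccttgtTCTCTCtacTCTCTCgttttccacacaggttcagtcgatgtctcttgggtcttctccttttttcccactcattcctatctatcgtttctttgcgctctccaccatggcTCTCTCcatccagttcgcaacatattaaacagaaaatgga

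dpy-28, chrIII:10759140-10759340: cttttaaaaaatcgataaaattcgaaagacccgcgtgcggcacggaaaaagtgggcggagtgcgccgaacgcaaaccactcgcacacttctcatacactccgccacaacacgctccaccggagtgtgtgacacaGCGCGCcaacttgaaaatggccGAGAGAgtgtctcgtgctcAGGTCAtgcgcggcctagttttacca

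The peak upstream of xol-1 carried 2 copies of the MEX core in opposite orientation. Counted from 1 at the left end of the printed stretch, the reverse-strand copy began at position 67 and the forward-strand copy at position 101, which is the summit itself. The core was rare in the pooled list: 37 of 26787 regions (0.138%) had it within 100 bp of the summit, and 4 had 2 or more copies. The sdc-2 peak had no MEX core but 3 copies of GAGAGA, all on the reverse strand, in a stretch rich in C and T. GAGAGA occurred in 31.8% of the IDR peaks on X and in 13.4% of all pooled regions. The dpy-28 peak held GCGCGC, which occurred in 17.0% of autosomal IDR peaks and 1.97% of all pooled regions, as well as GAGAGA, which occurred in 45.6% of autosomal IDR peaks. It also held the nuclear receptor half-site AGGTCA, 75 bp from the summit, which occurred in 8.16% of autosomal IDR peaks and 5.12% of all pooled regions. AGGTCA contains the shorter core GGTCA, so these are not separate matches. The GC content of the printed stretches was 35.8% at xol-1, 45.8% at sdc-2 and 54.2% at dpy-28, beside a median of 43.3% at all IDR peaks and 35.3% over all pooled regions. A match is a description of the letters and does not show that a factor is bound through them.

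**Figure D1:**
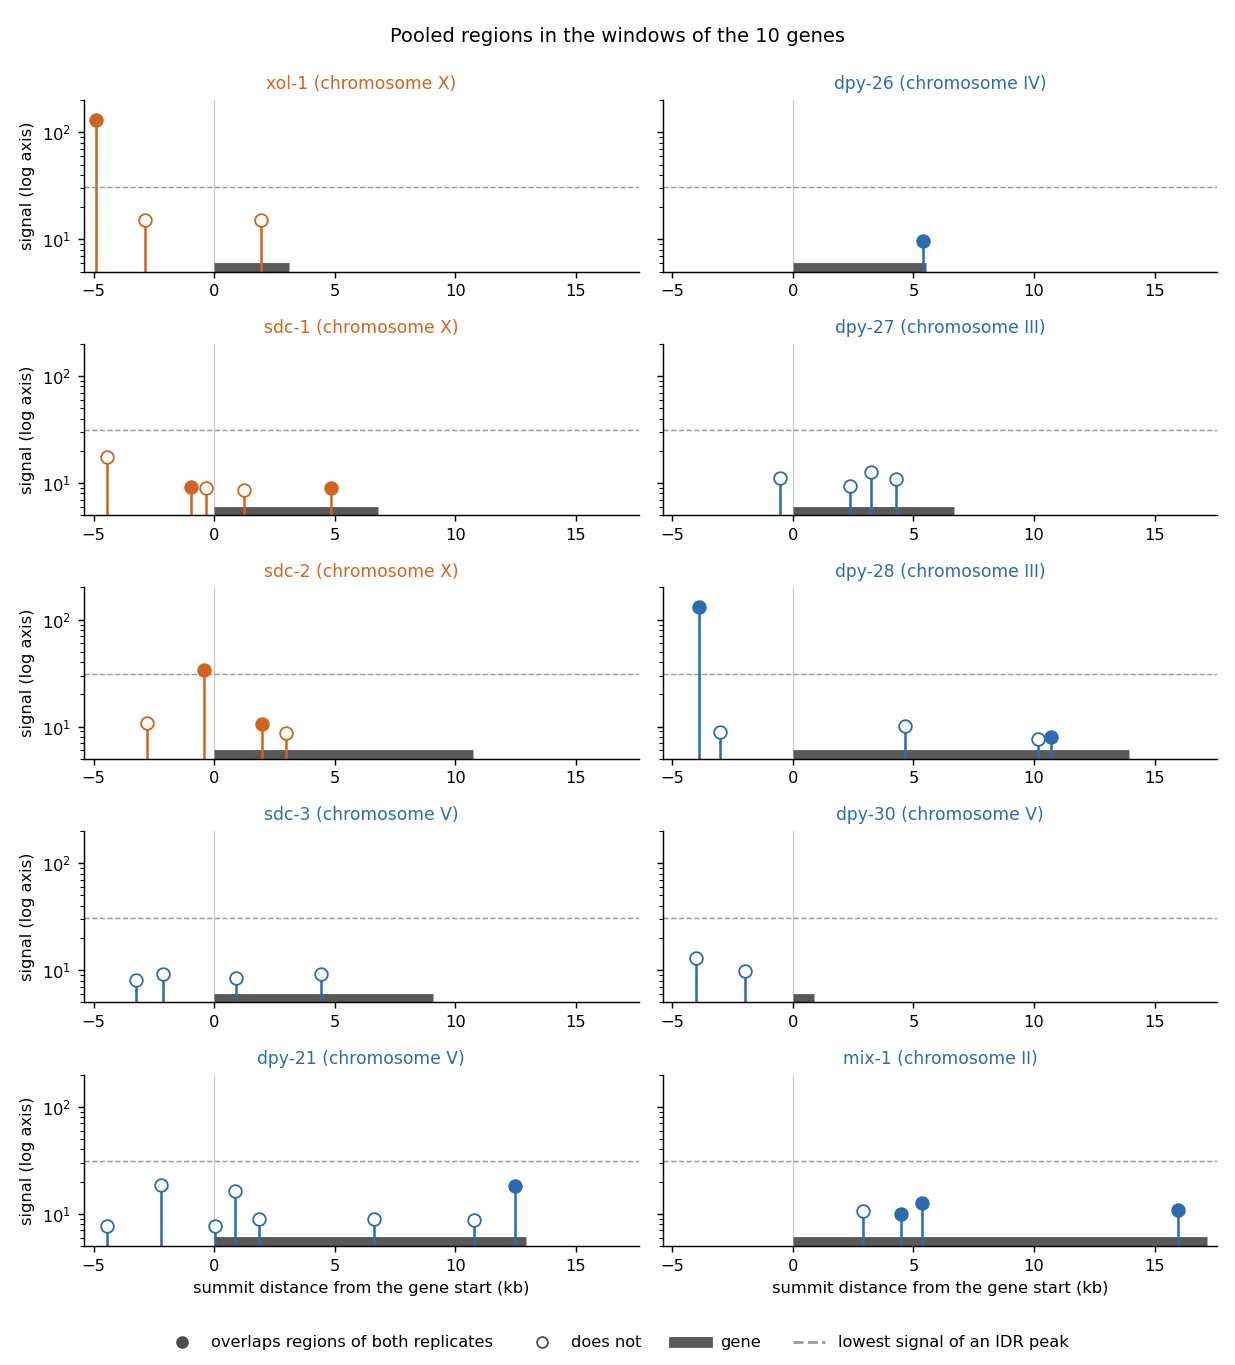
Signal (log axis) of each pooled region against the distance of its summit from the start of the gene, in kb, for the 10 genes, with X-linked genes in orange and autosomal genes in blue. Filled circles overlap regions of both replicates, grey bars are the genes, and the dashed line is the lowest signal of an IDR peak (31.0). Only the strongest regions of xol-1, sdc-2 and dpy-28 reach that line.

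The switch gene xol-1 (X, 8041313 to 8044409, forward strand) had, together with dpy-28, the strongest region of the 10 genes. Its signal was 131.5 in the pooled list, 92.4 in replicate 1 and 48.6 in replicate 2, at ranks 28, 24 and 25. The region held nearly the same place in each list. Of the pooled regions of higher signal, 17 were nuclear, 14 of them on X. Its summits in the replicates lay 50 bp to the right and 40 bp to the left of the pooled summit. No protein-coding gene overlapped it. The nearest were xol-1 itself, 4878 bp away, and C34D10.1, which ends 4821 bp to the other side. A tRNA gene and the non-coding RNA gene C18A11.13 lay 250 and 239 bp from the summit, toward xol-1, so the label of this region as a xol-1 region rests on the 5000 bp window, whose edge was 122 bp away. Just outside the edges, the nearest pooled region was 5228 bp upstream of sdc-2, at rank 25060.

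The other pooled regions of xol-1 lay closer to the gene, had lower signal and met 1 replicate each. A region 2854 bp upstream (pooled signal 15.1, rank 2516) overlapped a replicate 2 region of rank 654 and no replicate 1 region. A region 1955 bp into the gene (pooled signal 15.1, rank 2483) overlapped a replicate 1 region of rank 3220 and none of replicate 2. Between the peak and the gene, a weak region of replicate 1 (rank 27422) and a higher-ranked one of replicate 2 (rank 3137) overlapped each other but no pooled region. Their −log10 q values were 0.058 and 1.33. Around the 5′ ends of xol-1 itself, up to 1000 bp upstream and 200 bp downstream, there was no pooled region.

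Among the SDC genes, which act in hermaphrodites to bring the complex to X, sdc-2 had the strongest region and it lay at the gene's own 5′ end. The sdc-2 gene (X, 11522707 to 11533450, forward strand) encodes the protein that starts assembly on X. The summit was 442 bp upstream of the gene start, with a signal of 34.1 and rank 188 in the pooled list, 20.4 and rank 320 in replicate 1, and 11.3 and rank 515 in replicate 2. Both replicate summits lay within 27 bp of the pooled summit. This peak was near the end of the IDR set, whose lowest signal was 31.0, and in neither replicate alone was it among the first 237 regions. An IDR peak at a gene's own 5′ end, with no other protein-coding 5′ end nearer, was found for 0.591% of all protein-coding genes and 0.915% of those on X. The other 3 pooled regions of sdc-2 had signals of 8.74 to 10.9 and ranks from 8484 to 16327. Both regions inside the gene lay in coding exons, and the one 2799 bp upstream was nearer to the 5′ end of hpo-34.

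The zinc-finger gene sdc-1 (X, 16275763 to 16282534, forward strand) had 5 pooled regions and no IDR peak. Its best region, 4454 bp upstream, had a signal of 17.7 and rank 1318 in the pooled list, overlapped a replicate 1 region of rank 7927 and no replicate 2 region, and was nearer to the 5′ end of ifa-3, an intermediate filament gene, than to sdc-1. A tRNA gene, the non-coding RNA gene F52E10.7 and the antisense RNA gene W10G6.5 lay within 500 bp of that summit. At its own 5′ end sdc-1 had regions 966 and 320 bp upstream, at ranks 14320 and 15199. Both ranks are in the lower part of the list. The nearer of these regions met no region of either replicate. Its sequence held the half-site AGGTCA as well as GAGAGA (13.4% of pooled regions) plus CTGCGTC (2.67%), with a GC content of 52.2%. The farther lay within 500 bp of a tRNA gene and of the non-coding RNA genes F52E10.8 and F52E10.11.

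The third SDC gene, sdc-3 (V, 15039148 to 15048207, reverse strand), another zinc-finger protein needed to load the complex, had the weakest best region of the 10 genes in the pooled list, though not in replicate 1, where that of dpy-26 ranked lower (21529, against 16374 for sdc-3). Its 4 regions had pooled signals from 8.11 to 9.26, below the median of the pooled list (9.42), and ranks from 14009 to 19595. None of them overlapped regions of both replicates. The 2 upstream regions lay nearer to the 5′ end of the F-box gene fbxa-82 than to sdc-3. The gene dpy-30 (V, 12191519 to 12192385, forward strand), whose product also serves the H3K4 methyltransferase complexes, had 2 upstream regions. The farther, 4015 bp upstream at rank 4452, lay 12 bp into ZK863.8, and the nearer, 1982 bp upstream, ranked 12033. Replicate 2 held no region in the dpy-30 window. All 10 genes had a region in replicate 1, where 84.6% of all protein-coding genes did, and the other 9 had one in replicate 2, where 86.8% did.

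Among the genes of the condensin-like core, dpy-28 (III, 10763131 to 10777076, forward strand), which encodes a HEAT-repeat subunit, had the highest pooled signal of the 10 genes. It was 131.8 in the pooled list, 82.7 in replicate 1 and 51.5 in replicate 2, at ranks 27, 28 and 22. The 3 ranks differ little, and the order of dpy-28 and xol-1 is not the same in every list. Only 2 autosomal regions ranked above it in the pooled list. The summit lay 3891 bp upstream of dpy-28, but only 67 bp upstream of tasp-1, which encodes a threonine aspartase, and 718 bp upstream of K01G5.10, a gene on the other strand. The same region also fell in the windows of rnf-113 and of hpl-2, a gene for a heterochromatin protein 1 homologue, so 5 genes share it. Within dpy-28 itself 3 regions lay in introns, with ranks from 10414 to 22080.

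The remaining core genes had only weak regions in the pooled list. The gene dpy-27 (III, 3813018 to 3819679, reverse strand), which encodes the SMC4 variant found in the dosage compensation complex, had 4 regions with signals from 9.44 to 12.6. One lay at its own 5′ end, 521 bp upstream, at rank 7834 in the pooled list and rank 3794 in replicate 1, and met no region of replicate 2. The best of dpy-27, at rank 5170, lay 3234 bp into the gene, in an intron, and met a region of replicate 2 only. The mix-1 gene (II, 10824246 to 10841424, forward strand) encodes the SMC2 subunit that this complex shares with the mitotic condensins. All of its 4 regions lay inside the gene, at ranks from 4985 to 11257, and 3 of them overlapped regions of both replicates. All 4 were nearer to the 5′ end of another gene, for 3 of them VM106R.1, which starts inside mix-1. The kleisin gene dpy-26 (IV, 12445801 to 12451335, reverse strand) had 1 region, at rank 12214, at the end of its 3′ UTR and 60 bp upstream of C25G4.3, which met regions of both replicates (ranks 21529 and 1787).

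The gene dpy-21 (V, 17936282 to 17949193, reverse strand), whose product removes a methyl group from lysine 20 of histone H4 on X, had the most pooled regions, though not the most in replicate 2 (7, against 10 for sdc-2). The pooled ones numbered 8, with pooled signals from 7.72 to 18.4 and ranks from 1121 to 21798. The best, 2190 bp upstream, was 566 bp upstream of Y59A8B.24 and had the highest GC content of the regions of these genes (62.2%). The next, at rank 1164, lay in the 3′ UTR of dpy-21 and was the one region of the gene found in both replicates, at rank 1361 in replicate 1 and 26252 in replicate 2. A region in the intron 862 bp from the gene start ranked 1716 in the pooled list and 4859 in replicate 1, with no region of replicate 2. The region at the 5′ end of dpy-21 itself, 38 bp downstream of the start, ranked 21798.

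**Figure D2:**
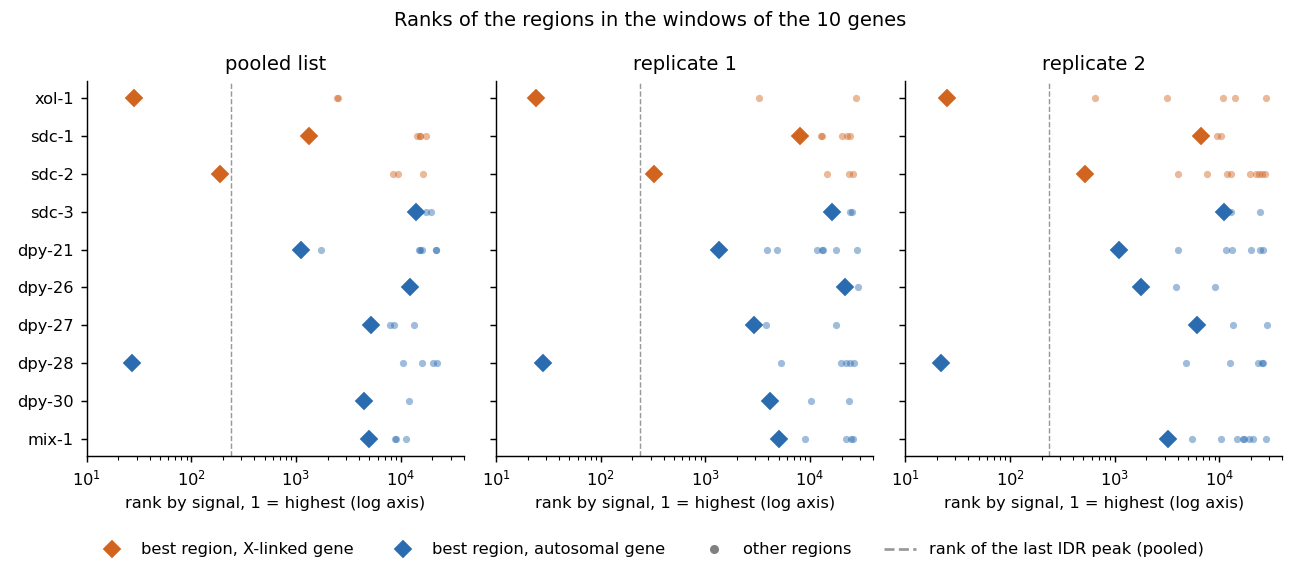
Rank of each region (log axis, 1 is the highest signal) in the windows of the 10 genes, in the pooled list and in each replicate. Diamonds are the best region of a gene and small circles the others, with X-linked genes in orange and autosomal genes in blue, and the dashed line is rank 237, the last IDR peak of the pooled list. The best regions of xol-1 and dpy-28 hold ranks 22 to 28 in all 3 lists, and no replicate 2 region lies at dpy-30.

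Across the 10 genes there were 40 pooled regions in 136774 bp of window, 16 upstream of the gene and 24 inside it. By the place of the summit, 14 were in introns, 13 between genes and 8 in coding exons. Of the 40, 22 had the member itself as the protein-coding gene with the nearest 5′ end and 18 had another gene. No such shares over all pooled regions are given here, so the counts by place and by nearest gene are description only. At the genes' own 5′ ends (up to 1000 bp upstream and 200 bp downstream, with no other gene's 5′ end nearer) lay 5 regions, of sdc-1, sdc-2, dpy-21 and dpy-27. These are 4 of the 10 genes, where 31.1% of all protein-coding genes had such a region. The median rank of the 40 regions was 11645 of 26787.

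Of the 12 regions that met both replicates, 3 were the IDR peaks and the other 9 ranked lower. The 3 IDR peaks all met regions of both replicates, as 97.5% of all IDR peaks did. Both replicates' lists went into that selection, so this is not an independent check. Of the 8 regions ranked from 238 to 5000, 2 met both replicates, against 60.7% of all pooled regions of those ranks. Of the 29 regions of lower rank, 7 met both, against 22.2% of all regions of those ranks. Together these were 12 of the 40 regions, against 29.7% of all pooled regions. Replicate 1 alone or with replicate 2 was met by 26 (67.5% of all pooled regions) and replicate 2 by 22 (51.2%), which leaves 4 that met neither. Under stricter rules 6 of the 40 met both, with a reciprocal overlap of 50% or with summits within 100 bp. The stricter rules were not applied to all pooled regions, so this count has no background share beside it.

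**Figure D3:**
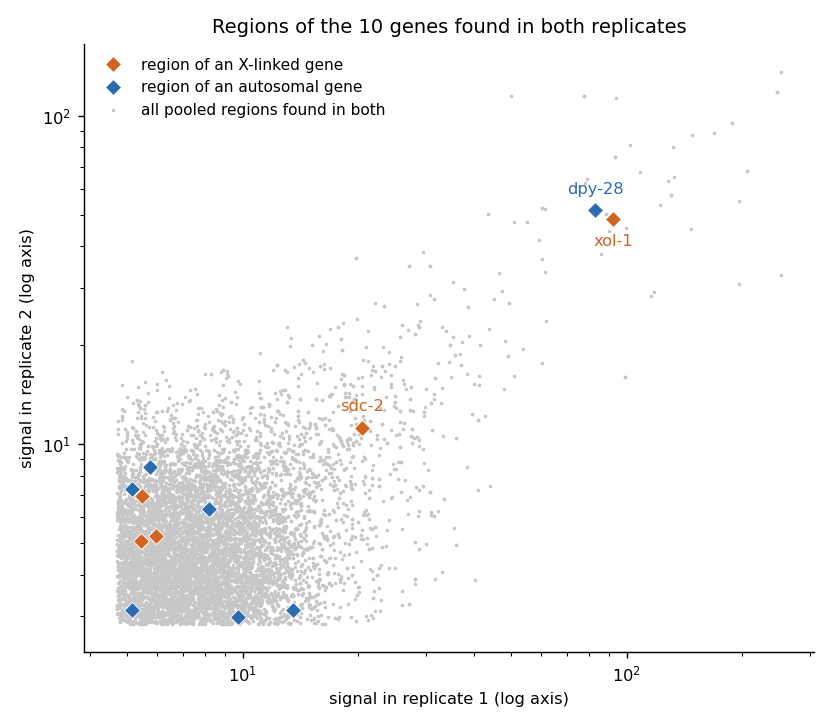
Signal in replicate 1 against signal in replicate 2 (both log axes) for pooled regions that overlap regions of both replicates, with the 12 regions of the 10 genes as diamonds (orange for X-linked genes, blue for autosomal genes) and all 7950 such regions in grey. The peaks of dpy-28 and xol-1 lie close together near the top, the sdc-2 peak is lower in both replicates, and the other 9 lie in the cloud of weak regions.

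The 3 X-linked genes (xol-1, sdc-1 and sdc-2) were set beside the 7 autosomal ones with no test, as genes are not replicates. Of the X-linked genes 2 had an IDR peak, where 2.53% of all X genes did, and of the autosomal genes 1 did, where 1.78% of all autosomal genes did. The median rank of the best region was 188 for the X-linked genes (range 28 to 1318) and 4985 for the autosomal genes (range 27 to 14009). With windows of 2000 bp upstream the medians were 2483 for the X-linked and 10414 for the autosomal genes. In replicate 1 they were 320 for the X-linked and 4141 for the autosomal genes. In replicate 2 they were 515 for the X-linked and 2523.5 for the autosomal genes, the latter without dpy-30, which had no region there. The ranges overlap in the pooled list, because dpy-28 ranked first and dpy-21 lay before sdc-1. Over all protein-coding genes with a region the medians were 7344 on X and 7497 on autosomes. The windows of the 10 genes were longer than usual, with a median of 12916 bp against 7027 bp over all genes, and a longer window has more room for a region of high rank.

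The density of pooled regions differed less than the ranks. It was 3.37 regions per 10 kb of window for the X-linked genes (12 regions) and 2.77 for the autosomal genes (28 regions), beside 2.62 over all X genes and 2.70 over all autosomal genes. Replicate 1 gave 3.65 regions per 10 kb for the X-linked and 2.97 for the autosomal genes, and replicate 2 gave 5.34 for the X-linked and 3.06 for the autosomal genes. The difference of 0.60 in the pooled list is smaller than the spread between the differences of the replicates (SD 1.12, n = 2). The difference was 0.68 in replicate 1 and 2.27 in replicate 2. An SD of 2 values does not measure the error of the pooled difference.

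The best-region ranks also place each gene among all genes of the same kind of chromosome. A pooled region of rank 28 or better, as at xol-1, lay in the window of 0.549% of X genes, and one of rank 188 or better, as at sdc-2, in 2.05%. For sdc-1 this share was 10.1%. On autosomes the shares were 0.0522% for dpy-28, 8.32% for dpy-21, 27.3% to 30.8% for dpy-30, mix-1 and dpy-27, 56.5% for dpy-26 and 61.0% for sdc-3. The dpy-28 region lies at the promoter of tasp-1, and 5 autosomal genes share it. No allowance was made in these shares for the length of the windows. Between dpy-30, mix-1 and dpy-27 the pooled ranks (4452, 4985 and 5170) cannot be ordered, since their order changes in replicate 1 and in replicate 2.

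**Figure D4:**
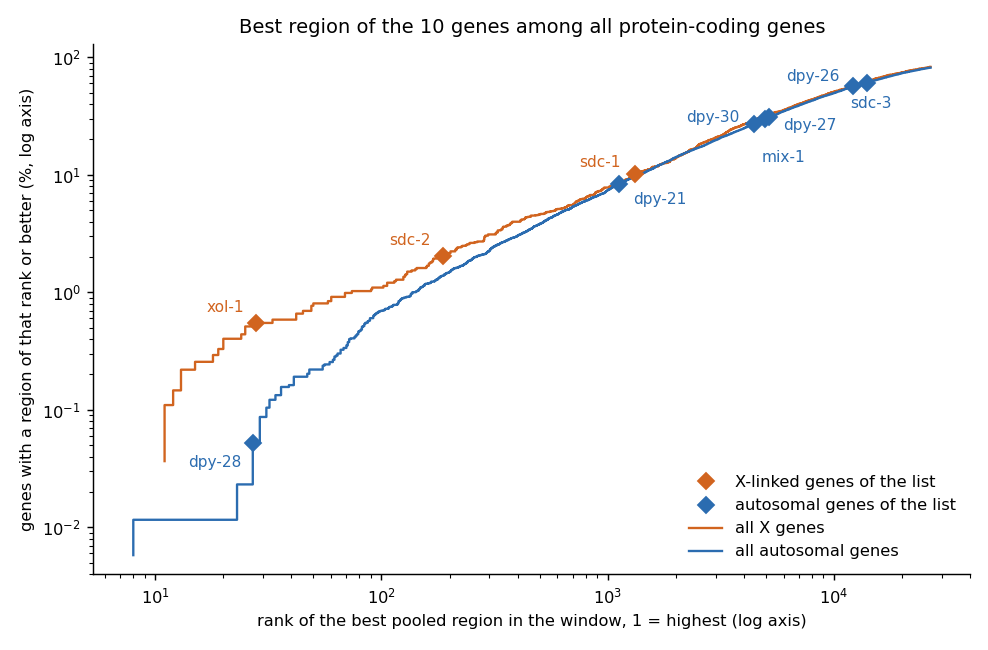
Share of protein-coding genes (log axis, in %) that have a pooled region of a given rank or better (log axis) in the window, for all X genes (orange line) and all autosomal genes (blue line), with the 10 genes as diamonds on the line of their chromosomes. The X-linked genes stand at 0.549%, 2.05% and 10.1%, and the autosomal genes between 0.0522% (dpy-28) and 61.0% (sdc-3).

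Genes that work with these 10 were looked at in the same way. Of 29 partner genes listed, 28 were found by name in the annotation (sex-2 was not). A pooled region lay in the window of 27 of the 28, where 81.9% of all protein-coding genes had one, and an IDR peak in that of 1, where 1.88% did. The counts of each list are read beside these shares, with no test. Among the signal elements that count X chromosomes and autosomes, 4 of 5 had a region and none an IDR peak. The best was at sea-2, an autosomal element, at rank 1663, with the summit 21755 bp into the gene and 130 bp upstream of K10G6.9. The X elements fox-1, an RNA-binding protein gene, and ceh-39, a homeobox gene, had best ranks of 4603 and 8889. No pooled region lay in the window of sex-1, which encodes a nuclear hormone receptor that represses xol-1, and the replicates alone had weak ones there (best ranks 15995 and 9019).

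Downstream in sex determination, all 10 genes had a pooled region and none an IDR peak. The best was at tra-2, a membrane receptor gene of the female pathway, at rank 605 in the pooled list, 718 in replicate 1 and 121 in replicate 2. It lay 2735 bp upstream of tra-2 and 760 bp upstream of eif-2Bgamma. The condensin partners had the weakest regions as a list, with a median best rank of 12195: 5 of 5 had a region, and the best, in capg-1, ranked 7593. Of the H3K4 methyltransferase partners of DPY-30, set-16 had an IDR peak (signal 57.6, rank 71 in the pooled list, 68 in replicate 1 and 178 in replicate 2), 175 bp upstream of its start and 171 bp upstream of that of drr-2. In the same list ash-2 had a region of rank 309, just outside the IDR set, which ranked 189 in replicate 1 and 15951 in replicate 2. The region of set-1, an H4K20 methyltransferase gene, ranked 841 and was nearer to jhdm-1. A region of the first 1000 ranks lay in the window of 3 of the 10 dosage compensation genes and of 4 of the 28 partners, where 7.45% of all protein-coding genes had one.

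**Figure D5:**
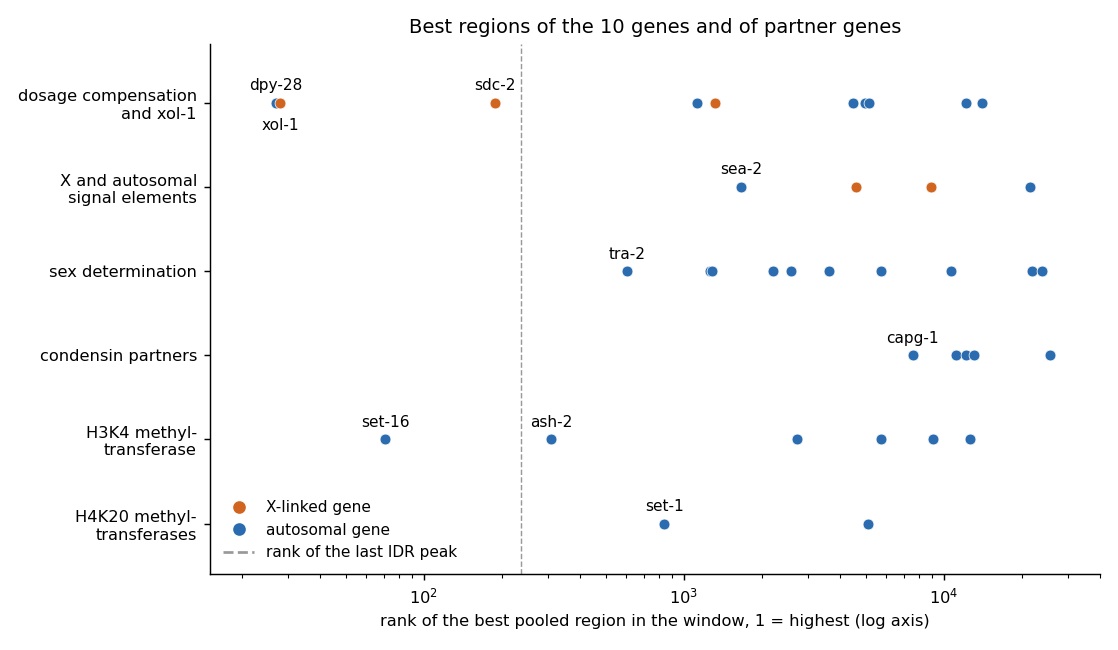
Rank of the best pooled region in the window (log axis, 1 is the highest signal) for the 10 genes and for 5 lists of partner genes, with X-linked genes in orange and autosomal genes in blue, and the dashed line at rank 237, the last IDR peak. Of the partners, set-16 (rank 71) lies before the line, and ash-2 (rank 309) lies just after it.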

How the data were processed

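The deposited ChIP-seq files are narrowPeak lists on builds ce11 and ce10, for 2 replicates in 1 group. Per the file lists deposited with the samples, each replicate's list and the pooled list were made as input for IDR, and the IDR peaks were derived from all 3. No label or file header used here names the aligner, peak caller or thresholds. The labels name a possible control experiment, but not whether it entered the calls. The deposited signal (column 7) has no stated scale and was used for ranks within a list. The deposited −log10 q values (column 9) were read but not used for ranking, as many regions share a value.

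Only ce11 was used, because no ce10 annotation was at hand. Genes came from Ensembl release 115 (WBcel235) and sequence from the RefSeq assembly WBcel235, within whose chromosomes all regions lie. A region was found in a replicate when it overlapped one of its regions by 1 bp or more. Motifs (the receptor sites AGGTCA or AAGTCA with their core GGTCA, the repeat GAGAGA, the promoter motif CTGCGTC with GCGCGC, the site TGATAA or TTTCAG, plus the MEX core GCGCAGGG) were searched on both strands in 201 bp around summits. Window, nearest-gene and overlap steps were tested on planted regions. Python 3.11.15 with pandas 2.3.3 was used. No test was run: there is 1 group of 2 replicates, and regions and genes are not replicates.

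The genes, partner lists and motifs were chosen with earlier results of these data known. Named are the 10 genes, the genes nearest to their regions, and in each partner list those with an IDR peak or a region of the first 1000 ranks, or else the best. Other named partners, and neighbours of the 3 peaks, were picked with their values in view. Alternatives were other windows, overlap in place of summits, higher ranks only, the nearest gene only, each replicate alone, RefSeq gene extents (added after the data were seen) and stricter overlap.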

Additional observations from a re-analysis of the deposited data

How the results depend on the processing

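Of 81 recomputed values, 56 stayed within 1.5 times (counts) or 1 SD of the replicates (ranks, densities) and 25 did not. That SD came from the settings with each replicate alone, so for those settings it is not an independent measure. Median ranks leave out genes that have no region under a setting. With windows from 2000 bp upstream to the gene end, 1 gene (sdc-2) had an IDR peak in place of 3, and the median best rank was 2483 for X-linked and 10414 for autosomal genes. With windows of 1000 bp before and 200 bp after the gene start, 4 genes had a pooled region (5 regions in all), 1 had an IDR peak, 12 partner genes had a region, the X-linked minus autosomal density was 5.95 per 10 kb and the median best ranks were 7254 and 14816. In the first 1000 ranks 3 genes had 3 regions, 1 of them at an own 5′ end, 4 partner genes had one, and the autosomal median was 27, that of dpy-28 alone. In the first 10000 ranks there were 18 regions, 2 at an own 5′ end. Counting a region only for the gene with the nearest 5′ end left 22 regions, removed the peak of dpy-28 and gave an autosomal median of 10414. With each replicate alone, the density difference was 0.68 to 2.27 (2.27 from replicate 2), the X-linked median rank 320 to 515 and the autosomal median 2523.5 to 4141. With 50% reciprocal overlap or summits within 100 bp 6 regions met both replicates, and 4 within the first 10000 ranks of each. The counts under stricter overlap were made for the regions of the 10 genes only. Those under other windows, in the first 10000 ranks and by nearest gene cover only the 10 genes and their partners. No share over all genes or regions is given beside these counts, so they are description only. For the first 1000 ranks, 7.45% of all protein-coding genes had a region in the window. The lists hold no read counts, so depth and counting error are unknown, and an absent region is not shown to be absent binding. No control immunoprecipitation was used here, so signal that these regions may give with other targets was not tested.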

Other observations

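The MEX core seen at the xol-1 peak was concentrated in the X peaks of this experiment. It lay within 100 bp of the summit in 14 of 66 IDR peaks on X (21.2%), in 8 of the 4576 other pooled regions on X (0.175%) and in 1 of 147 autosomal IDR peaks (0.680%). All 4 pooled regions with 2 or more copies were IDR peaks on X, and the xol-1 peak was one of them. Among the 15 strongest X peaks, of which the xol-1 peak was the last, 9 had the core, against 5 of the other 51, a split chosen after the values were seen. These are counts with no test, and what gives the signal at such sites was not tested.

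The genes with best-region ranks most like those of dpy-28 over the 3 lists were its neighbours K01G5.10, hpl-2, rnf-113 and tasp-1, which share the same region (distance 0). The next were cdc-48.1, which encodes an AAA ATPase, and C06A1.7, which share a region at ranks 23, 26 and 24.

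The peaks of xol-1 and dpy-28 were also narrow in the pooled list and in replicate 1. In replicate 2 only that of dpy-28 was narrow (10759218 to 10759317). The replicate 2 region of xol-1 (8036205 to 8036584) had the same width as the other replicate 2 regions of that gene. In the pooled list the xol-1 peak was 212 bp wide and the dpy-28 peak 209 bp, where 340 bp was the width of all but 23 regions (0.0859%). Of these 23, 14 lay on X, 6 on autosomes and 3 on mitochondrial DNA.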
